A study of Mus musculus with 16 samples.

Results

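The genes described here make cholesterol, sense it, move it between membranes, esterify it or send it out of the cell. They are 34 named genes of a fixed list, found by gene symbol in a count table of 55385 genes, and all 34 were present and expressed enough to be tested. RNA was measured in brain cortex of 16 mice at 5 months of age, with 4 libraries for each of 4 genotypes. Wild-type C57BL/6J mice (WT) carried neither alteration. Dp16 mice carry an extra copy of a stretch of mouse chromosome 16 whose genes are mostly found on human chromosome 21, and serve as a model of Down syndrome. 5xFAD mice, a model of amyloid deposition, carry human transgenes with familial Alzheimer mutations under the Thy1 promoter, which is active in neurons. 5xFAD-Dp16 mice carry both alterations. WT, Dp16 and 5xFAD each had 2 males and 2 females, whereas all 4 5xFAD-Dp16 mice were male. A sex term was therefore part of every fitted difference of the main analysis. Library values, means, sums and the overlap of groups are not adjusted for sex. None of the 34 genes lies on chromosome 16.

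Cholesterol is built from acetyl-CoA through mevalonate, squalene and lanosterol. When membranes of the endoplasmic reticulum run low in cholesterol, the carrier protein SCAP escorts the transcription factor precursors SREBP-1 and SREBP-2 to the Golgi, where they are cut free to switch on the synthesis genes, and the INSIG proteins hold this transport back when sterol is plentiful. Oxidised sterols activate the LXR receptors, which switch on the exporters ABCA1 and ABCG1. Brain cholesterol is made locally and leaves the brain mainly as 24S-hydroxycholesterol, the product of the neuronal enzyme CYP46A1.

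No sterol gene passed an adjusted p of 0.05 (edgeR quasi-likelihood test, Benjamini-Hochberg over 17019 genes) in any of the 5 genotype comparisons or in the interaction, which asks whether the Dp16 duplication makes the same difference with the 5xFAD transgenes as without them. Over all genes, 0.0176% passed in Dp16 against WT, 0.176% in 5xFAD against WT, 0.0% in 5xFAD-Dp16 against 5xFAD, 0.0176% in 5xFAD-Dp16 against Dp16, 0.047% in 5xFAD-Dp16 against WT and 0.0% in the interaction. At an unadjusted p under 0.05, 10 of the 34 genes stood apart in 5xFAD against WT, 5 higher and 5 lower, where 10.7% of all genes did. In 5xFAD-Dp16 against 5xFAD 11 of 34 did, 6 higher and 5 lower, against 23.8% of all genes. The counts were 1 of 34 in Dp16 against WT (3.88% of all genes), 2 of 34 in 5xFAD-Dp16 against Dp16 (5.29%), 3 of 34 in 5xFAD-Dp16 against WT (10.4%) and 4 of 34 in the interaction (9.35%). The median log2 difference of the 34 genes was 0.07 in Dp16 against WT, 0.08 in 5xFAD against WT, -0.03 in 5xFAD-Dp16 set against 5xFAD, -0.01 where it was set against Dp16 and 0.05 where it was set against WT, beside all-gene medians from -0.0018 to 0.02. A second tool, DESeq2, called 2 of 34 in 5xFAD against WT (1.38% of all genes), 1 in 5xFAD-Dp16 against WT (0.623%) and 6 in 5xFAD-Dp16 against 5xFAD. In that last comparison the share was 7.5% of only 10418 genes, those to which DESeq2 gave an adjusted p. It called 0 in the other 3. The values below are therefore descriptions of members whose adjusted p missed the threshold, with their intervals. Comparisons that name the same genotype share its libraries. A shift in the 5xFAD libraries alone thus gives opposite signs in 5xFAD against WT and in 5xFAD-Dp16 against 5xFAD.

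**Figure D1:**
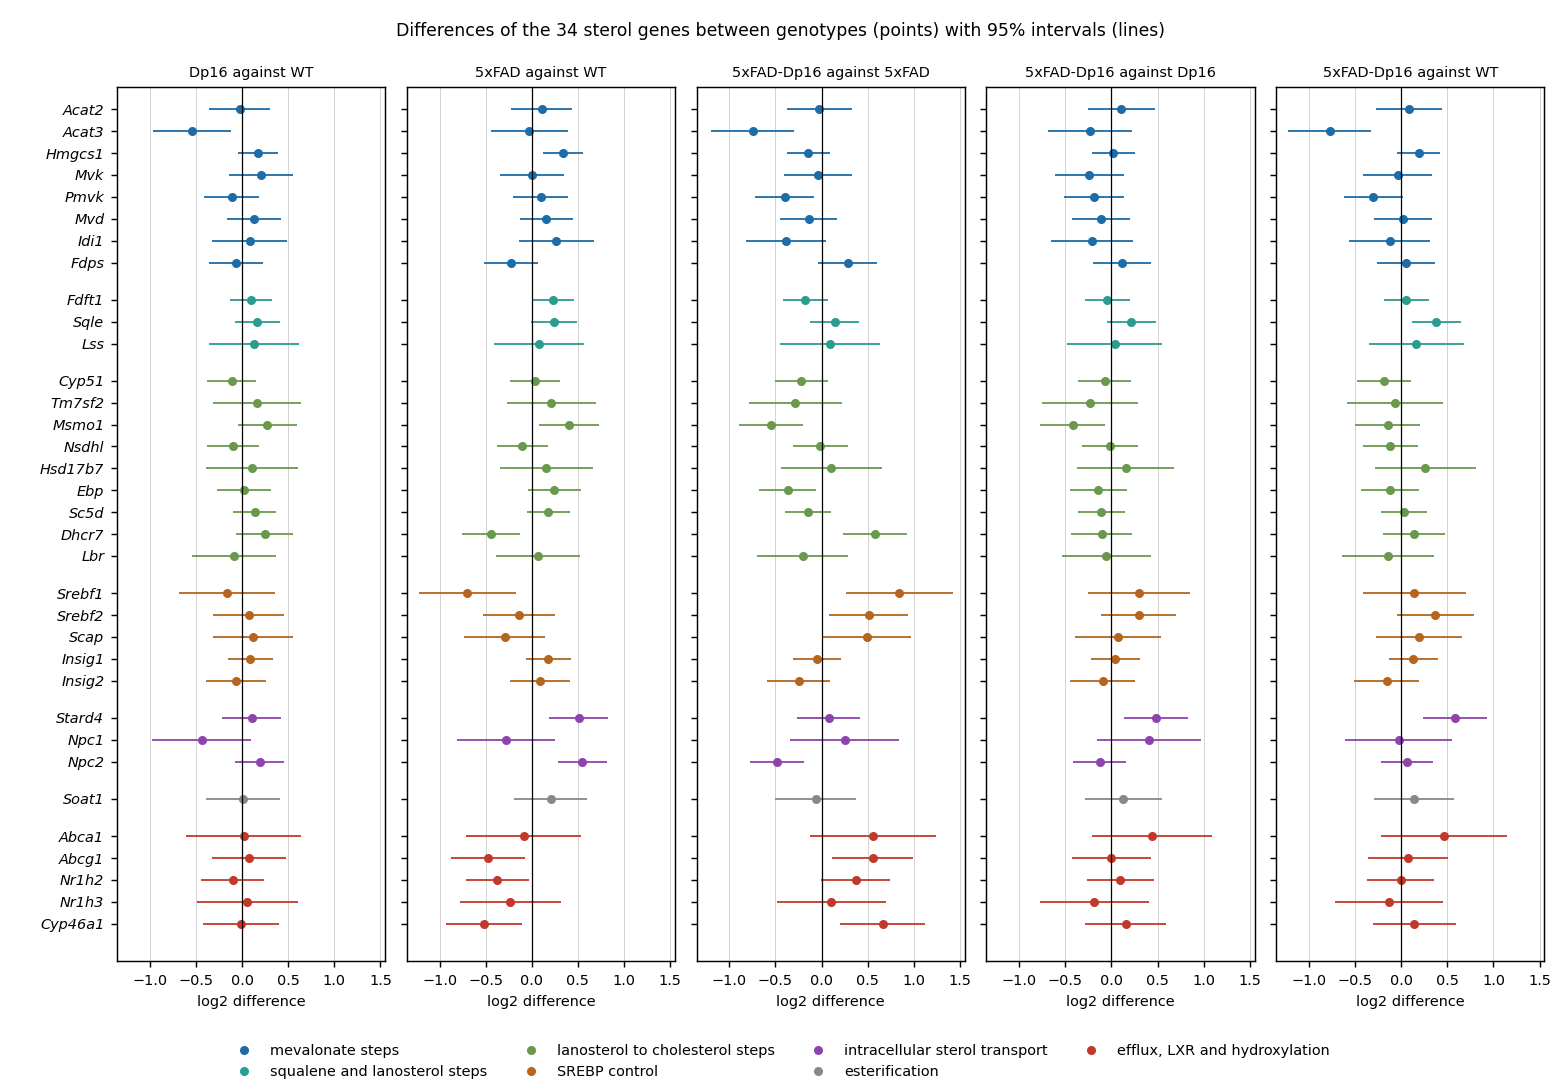
Log2 differences of the 34 sterol genes (rows, grouped by role) in the 5 genotype comparisons (panels), with points for the estimate and lines for its 95% interval. The 5 genes of efflux, LXR signalling and hydroxylation (red, bottom) all lie left of 0 in 5xFAD against WT and right of 0 in 5xFAD-Dp16 against 5xFAD. The same 5xFAD libraries enter these comparisons with opposite sign.

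Totals per library ran from 12483286 to 20385010 counted reads, and 7.71 to 10.99% of reads came from mitochondrial genes. WT library 2 and 5xFAD library 3 had the lowest median correlation with the other libraries (0.939 and 0.938, the rest 0.953 to 0.972). Libraries also differed in how values followed gene length: the Spearman rho, across genes, of gene length with how far each gene sat from its 16-library mean ran from -0.46 in 5xFAD library 3 to 0.45 in 5xFAD-Dp16 library 1, with WT library 4 at 0.43. 5xFAD library 3 was the highest or lowest of its genotype for 29 of the 34 sterol genes, where it was so for 74.4% of all genes, and WT library 4 for 26 of 34, against 65.8%. Nothing in the labels says whether the numbered samples were handled as separate preparations, so p-values measure the spread between these samples.

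The levels of the 34 genes were compared as CPM, that is counts scaled to library size, divided by gene length in kilobases. This is the length implied by the authors' RPKM values. It can be shorter than all annotated exon bases, as in Lss (4667 against 10787) and Hmgcs1 (3482 against 4594). The order of genes below holds for this length, and other lengths were not tried. In WT, Msmo1 had the highest mean, 74.8 ± 13.3 (SD, n = 4), followed by Hmgcs1 at 70.7 ± 5.96 and Cyp46a1 at 67.6 ± 15.8. These 3 do not differ beyond their spread. Insig1 followed at 41.4 ± 5.05, then Fdft1 at 37.5 ± 5.63, Pmvk at 35.7 ± 8.15 and Npc2 at 35.0 ± 5.59, whose SDs overlap. The lowest were Abca1 at 0.927 ± 0.405, Lss, the enzyme that closes squalene epoxide into lanosterol, at 2.40 ± 0.468, and Soat1, which esterifies cholesterol, at 2.41 ± 0.266. Lss and Soat1 do not differ beyond their spread, while Abca1 lies below both. The enzymes of one route thus spanned from 2.40 to 74.8 per kb. In 5xFAD the order at the top was Msmo1 at 101 ± 27.8, Hmgcs1 at 89.4 ± 9.77, Npc2 at 51.0 ± 4.86 and Cyp46a1 at 47.6 ± 12.4.

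**Figure D2:**
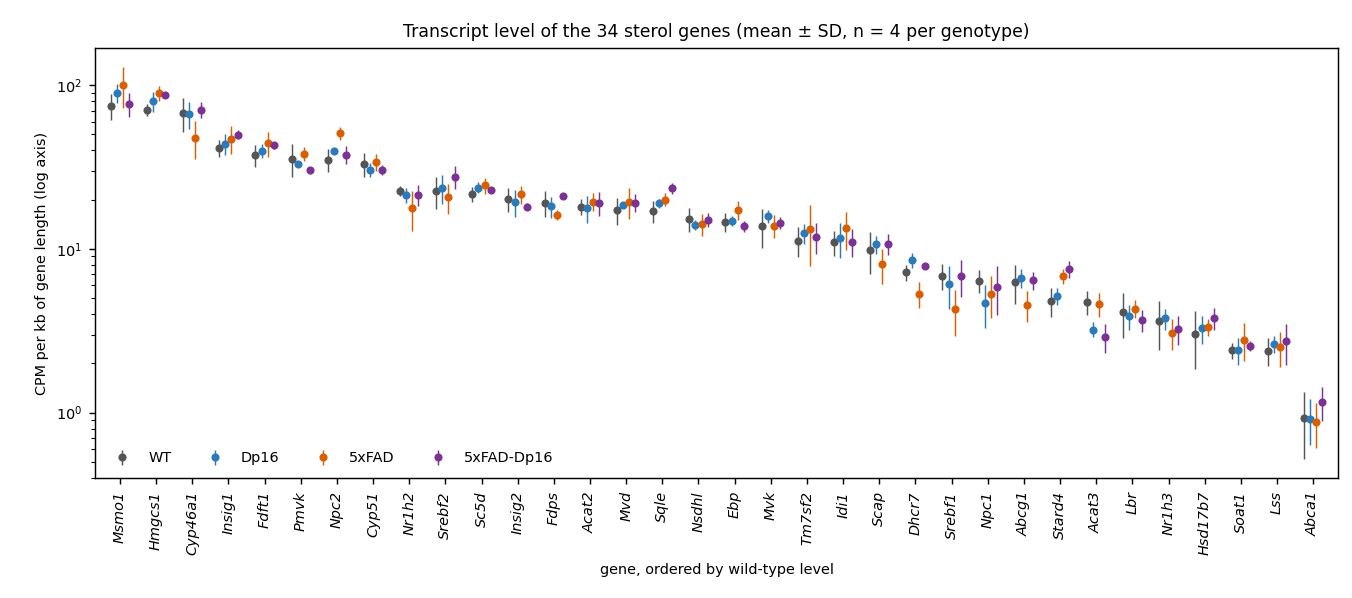
Mean level of each of the 34 sterol genes in CPM per kb of gene length (log axis), with SD bars over 4 libraries, in WT (grey), Dp16 (blue), 5xFAD (orange) and 5xFAD-Dp16 (purple). The genes are ordered by WT level, from Msmo1 at 74.8 to Abca1 at 0.927 per kb.

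The letters before the start sites of 3 genes are shown because they hold the sterol regulatory element core TCACNCCA, the motif through which SREBP acts. RefSeq promoters (GRCm38.p6) were matched for 27 of the 34 genes, 36 promoters in all; Abcg1, Acat3, Fdft1, Fdps, Npc1, Sqle and Stard4 had no entry. The 250 bases before the start were searched on both strands, and the core was found in 3 of the 36, beside 3.67% of 32851 promoters of all genes. CCAAT, the box bound by NF-Y, a factor known to act beside SREBP, was found in 23 of the 36, beside 33.8% of all promoters. These 23 belong to 22 of the 27 genes, and no share per gene was computed to set beside that count. The 2 motifs do not overlap in the stretches printed. Capitals mark the core, in either orientation, and CCAAT or its reverse complement ATTGG. Hmgcs1 is chr13:119690101-119690350 on the plus strand, Msmo1 is chr8:64733579-64733828 on the minus strand and Srebf2 is chr15:82147019-82147268 on the plus strand. The sequences are written 5′ to 3′ along the gene's strand and end just before RefSeq's start site.
Hmgcs1: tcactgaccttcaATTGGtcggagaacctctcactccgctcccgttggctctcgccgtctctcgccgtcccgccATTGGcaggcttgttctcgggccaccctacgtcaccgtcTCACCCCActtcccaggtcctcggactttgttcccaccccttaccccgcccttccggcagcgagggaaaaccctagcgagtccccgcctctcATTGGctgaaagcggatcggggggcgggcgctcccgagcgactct
Msmo1: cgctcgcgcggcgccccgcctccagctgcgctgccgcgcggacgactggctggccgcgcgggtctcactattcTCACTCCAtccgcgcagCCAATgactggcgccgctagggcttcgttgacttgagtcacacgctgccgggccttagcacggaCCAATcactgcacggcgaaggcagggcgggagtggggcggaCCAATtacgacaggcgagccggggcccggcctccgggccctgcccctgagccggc
Srebf2: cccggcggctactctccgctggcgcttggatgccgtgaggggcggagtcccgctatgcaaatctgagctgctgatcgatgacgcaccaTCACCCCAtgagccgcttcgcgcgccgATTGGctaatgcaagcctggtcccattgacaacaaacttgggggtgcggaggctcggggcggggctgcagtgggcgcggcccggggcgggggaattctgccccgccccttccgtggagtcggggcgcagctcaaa
Each match is a description of letters. Gencode places the start of Msmo1 at 64733792 and that of Srebf2 at 82147181, so both stretches reach into the gene as Gencode annotates it. The core and the boxes of the Msmo1 stretch lie inside that gene. The stretch of Hmgcs1 holds 1 core and 3 NF-Y boxes, that of Msmo1 1 core and 3 boxes, and that of Srebf2 1 core and 1 box.

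Of the 8 genes of the mevalonate steps, Hmgcs1, which joins acetyl-CoA and acetoacetyl-CoA to HMG-CoA, was higher in 5xFAD. Its CPM was 254, 220, 269 and 241 in WT, 230, 294, 321 and 267 in Dp16, 279, 307, 301 and 359 in 5xFAD, and 286, 305, 315 and 307 in 5xFAD-Dp16. All 8 libraries with the 5xFAD transgenes were above all 4 WT libraries, while Dp16 overlapped both. The log2 difference of 5xFAD from WT was 0.34 ± 0.10 (SE; 95% interval 0.12 to 0.55; adjusted p = 0.254), and that of 5xFAD-Dp16 from WT 0.19 ± 0.11 (adjusted p = 0.514). DESeq2 gave an adjusted p of 0.0333 for 5xFAD against WT, in a fit that called 1.38% of all genes. Of the exon bases of Hmgcs1, 12.1% overlap the antisense gene Gm48342.

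Acat3, a close copy of the cytosolic acetoacetyl-CoA thiolase gene Acat2, was lower in mice with the Dp16 duplication. Acat3 CPM was 11.2, 10.2, 12.2 and 8.15 in WT, 7.52, 7.87, 6.23 and 6.78 in Dp16, 11.3, 7.89, 11.5 and 10.005 in 5xFAD, and 7.27, 6.2, 7.52 and 4.62 in 5xFAD-Dp16. All 8 libraries with the duplication were below all 8 without it, by a gap from 7.87 to 7.89, and 0.0176% of all genes were lower in this way. The log2 difference was -0.54 ± 0.20 for Dp16 against WT (adjusted p = 1.00), -0.75 ± 0.21 for 5xFAD-Dp16 against 5xFAD (adjusted p = 0.155) and -0.78 ± 0.21 for 5xFAD-Dp16 against WT (adjusted p = 0.331). Over both backgrounds, a comparison added after seeing the data, it was -0.65 ± 0.14 (95% interval -0.95 to -0.34; adjusted p = 0.159, where 0.094% of all genes passed), and DESeq2 gave an adjusted p of 0.00597. The value is uncertain for its source: 42.6% of the 50-base stretches of Acat3 are also in Acat2, and 23.5% of its exon bases overlap Tcp1, a chaperonin subunit gene on the opposite strand. The strand setting of the authors' counting is not given in the sources used here. Acat2 itself differed from WT by -0.03 ± 0.16 in Dp16 and by 0.08 ± 0.17 in 5xFAD-Dp16, and Tcp1 by -0.02 ± 0.15 and -0.22 ± 0.17. Between 5xFAD-Dp16 and 5xFAD, Tcp1 differed by -0.41 ± 0.16 (adjusted p = 0.166), the same sign as Acat3, and Acat2 by -0.03 ± 0.17.

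Pmvk, which phosphorylates phosphomevalonate, was lower in 5xFAD-Dp16 than in 5xFAD. Its CPM was 69.5, 70.6, 63.6 and 40.6 in WT, 58.3, 55.1, 55.0 and 56.5 in Dp16, 59.2, 61.1, 68.5 and 72.2 in 5xFAD, and 50.2, 54.5, 49.5 and 53.2 in 5xFAD-Dp16. The 5xFAD-Dp16 libraries were below all 5xFAD and all Dp16 libraries, and WT library 4 was the lowest of all 16. The log2 difference from 5xFAD was -0.40 ± 0.15 (adjusted p = 0.159) and -0.21 (adjusted p = 0.297) once each library's length trend was taken out. Among the other mevalonate genes, Fdps, which makes farnesyl diphosphate, was also separated in that comparison, with 22.1 to 25.1 CPM in 5xFAD and 29.6 to 31.7 in 5xFAD-Dp16 (log2 difference 0.28 ± 0.15, adjusted p = 0.254). Of the 50-base stretches of Fdps, 26.2% occur in other genes. Mvk and Mvd, the kinase and decarboxylase around Pmvk, and the isomerase Idi1 had overlapping groups, with log2 differences between -0.39 (Idi1, 5xFAD-Dp16 against 5xFAD) and 0.26 (Idi1, 5xFAD against WT) over the 5 genotype comparisons. Idi1 shares 17.7% of its stretches with Gm13502.

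The 3 genes of the squalene and lanosterol steps had positive differences from WT in Dp16, 5xFAD and 5xFAD-Dp16. Sqle, the squalene epoxidase, had CPM of 47.0, 36.8, 53.7 and 49.8 in WT, 48.5, 54.8, 55.3 and 51.3 in Dp16, 51.8, 52.4, 62.5 and 54.2 in 5xFAD, and 58.7, 68.0, 69.9 and 61.7 in 5xFAD-Dp16. The 5xFAD-Dp16 libraries were above all WT and all Dp16 libraries and overlapped 5xFAD. The log2 difference from WT was 0.38 ± 0.12 (95% interval 0.11 to 0.65; adjusted p = 0.417). Fdft1, the squalene synthase, averaged 150 ± 22.5 CPM in WT and 176 ± 31.1 in 5xFAD (log2 difference 0.23 ± 0.11, adjusted p = 0.457; 0.15 without WT library 2 and 5xFAD library 3), and 18.3% of its exon bases overlap Ctsb on the opposite strand. Lss stayed between 11.2 and 12.7 CPM on average in the 4 genotypes.

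In the 9 genes that turn lanosterol into cholesterol, Msmo1, the sterol C4-methyl oxidase, and Dhcr7, the last reductase of one branch, had differences of opposite sign in both comparisons with 5xFAD. In Dp16 against WT both were positive (0.28 and 0.24), and in 5xFAD-Dp16 against Dp16 both were negative (-0.42 and -0.11). Msmo1 CPM was 165, 163, 171 and 112 in WT, 163, 219, 175 and 180 in Dp16, 154, 162, 270 and 237 in 5xFAD, and 125, 190, 151 and 163 in 5xFAD-Dp16. The 2 highest values came from the 2 male 5xFAD libraries, while the 2 female ones lay within the WT range, and the groups overlapped in every comparison. The length trend had a rho of -0.46 and -0.24 in these male libraries and 0.23 and 0.08 in the female ones. Sex and length trend therefore cannot be told apart within 5xFAD. Its fitted log2 difference was 0.40 ± 0.15 for 5xFAD against WT (adjusted p = 0.365), -0.55 ± 0.16 for 5xFAD-Dp16 against 5xFAD (adjusted p = 0.155), -0.42 ± 0.17 for 5xFAD-Dp16 against Dp16 (adjusted p = 0.758; -0.23 without the sex term) and -0.82 ± 0.22 in the interaction (95% interval -1.30 to -0.35; adjusted p = 0.522).

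Dhcr7 CPM was 23.8, 20.2, 24.8 and 26.6 in WT, 28.2, 32.0, 28.4 and 24.4 in Dp16, 18.4, 21.1, 13.4 and 17.5 in 5xFAD, and 25.4, 26.8, 26.8 and 24.8 in 5xFAD-Dp16. All 4 5xFAD libraries were below all Dp16 and 5xFAD-Dp16 libraries, and 1 of them lay within the WT range. The log2 difference was -0.44 ± 0.15 for 5xFAD against WT (adjusted p = 0.305) and 0.58 ± 0.16 for 5xFAD-Dp16 against 5xFAD (95% interval 0.23 to 0.92; adjusted p = 0.155), and -0.41 and 0.52 once the length trend was taken out. Without WT library 2 and 5xFAD library 3 they were -0.41 and 0.45. In males only, which leaves 5xFAD libraries 3 and 4, the first was -0.67, and library 3 was the lowest of all for Dhcr7.

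The other 7 genes of these late steps had means close together. Cyp51, the lanosterol demethylase, averaged from 119 to 133 CPM over the genotypes, and Sc5d, the sterol C5-desaturase, from 105 to 119. Nsdhl and Hsd17b7, the partners of Msmo1 in removing the C4 methyl groups, averaged from 30.5 to 33.1 and from 15.2 to 19.0. Ebp, the sterol isomerase, averaged 30.2 ± 3.97 in 5xFAD and 23.9 ± 1.79 in 5xFAD-Dp16 (log2 difference -0.37 ± 0.15, adjusted p = 0.167). Once the length trend was taken out, the Ebp difference was -0.18. Tm7sf2 and Lbr, the 2 sterol C14-reductase genes, averaged from 19.0 to 22.4 and from 12.9 to 15.1. Across the 9 genes, 7 were positive in 5xFAD against WT (median 0.16) and 7 negative in 5xFAD-Dp16 against 5xFAD (median -0.21).

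**Figure D3:**
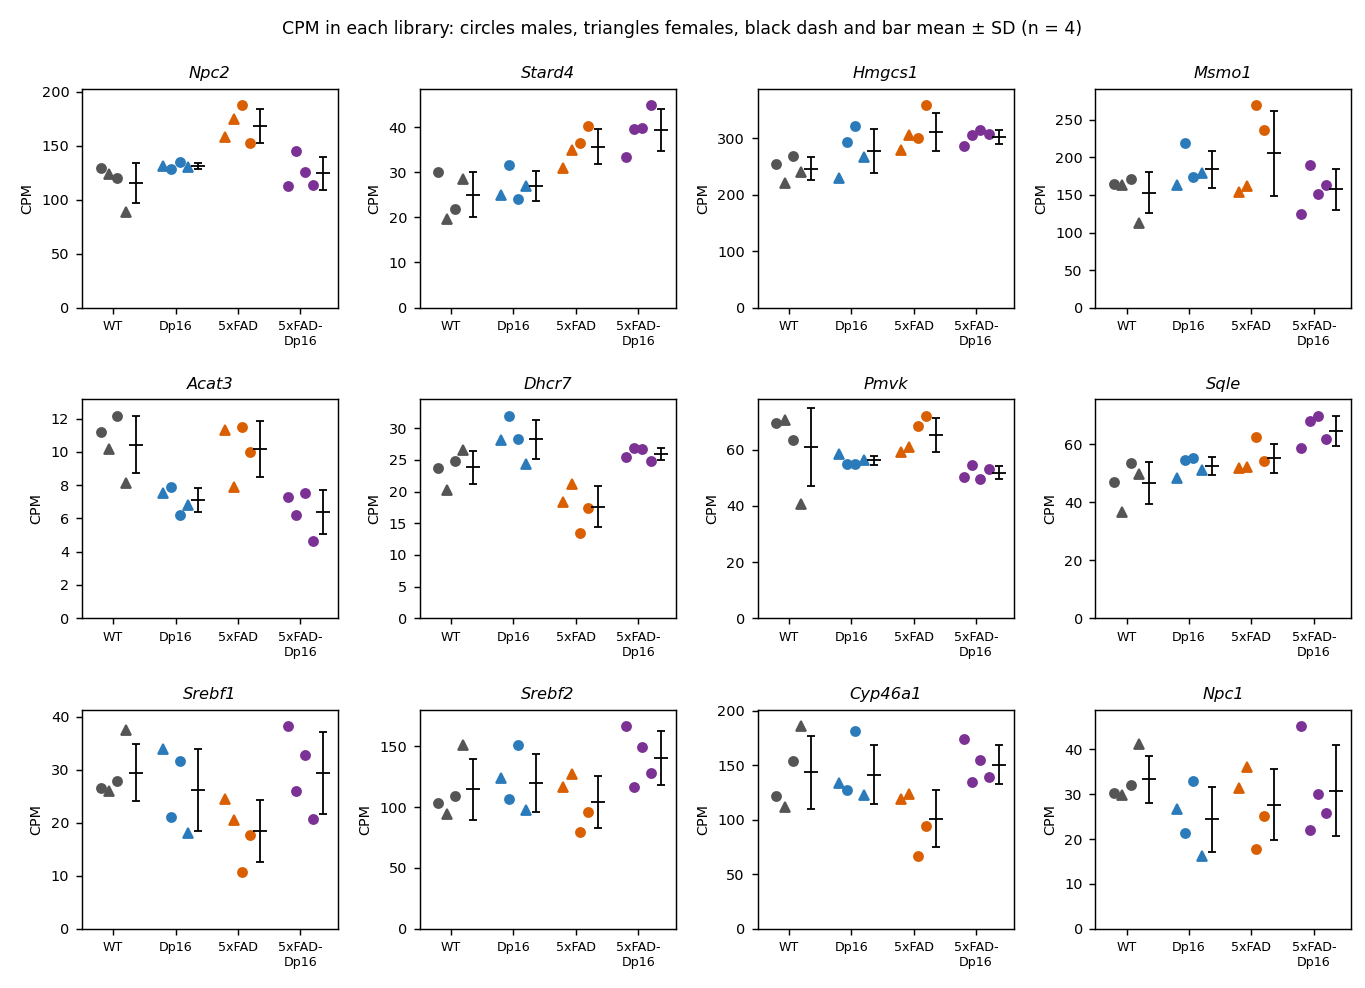
CPM of 12 sterol genes in each of the 16 libraries by genotype (circles males, triangles females), with the mean and SD of 4 libraries in black and each axis starting at 0. Npc2 is highest in the 4 5xFAD libraries, Acat3 is low in both genotypes with the duplication, and Stard4 is high in both genotypes with the 5xFAD transgenes.

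Of the 5 SREBP control genes, Srebf1, which encodes SREBP-1, was lowest in 5xFAD. Its CPM was 26.5, 26.0, 27.8 and 37.5 in WT, 33.9, 21.0, 31.7 and 18.1 in Dp16, 24.5, 20.6, 10.8 and 17.8 in 5xFAD, and 38.2, 25.9, 32.7 and 20.7 in 5xFAD-Dp16. The 5xFAD libraries were all below WT and overlapped the other 2 genotypes. In log2 terms the difference was -0.70 ± 0.25 for 5xFAD against WT (adjusted p = 0.334), 0.84 ± 0.27 for 5xFAD-Dp16 against 5xFAD (adjusted p = 0.155) and 1.00 ± 0.36 in the interaction (adjusted p = 0.522). Srebf2, which encodes SREBP-2, had CPM of 103, 94.5, 110 and 151 in WT, 124, 106, 151 and 97.4 in Dp16, 117, 127, 79.2 and 95.7 in 5xFAD, and 167, 117, 149 and 128 in 5xFAD-Dp16. The groups overlapped throughout, and the log2 difference of 5xFAD-Dp16 from 5xFAD was 0.51 ± 0.20 (adjusted p = 0.166). Scap was higher in the same comparison by 0.49 ± 0.23 (adjusted p = 0.204), and by 0.27 without 5xFAD library 3.

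The INSIG proteins hold SCAP back in the endoplasmic reticulum when sterol is plentiful. Insig1 averaged 112 ± 13.6 CPM in WT, 118 ± 16.7 in Dp16, 127 ± 24.7 in 5xFAD and 135 ± 8.75 in 5xFAD-Dp16, the last above all WT libraries (log2 difference 0.13 ± 0.13, adjusted p = 0.663). Insig2 averaged 63.6 ± 7.90 in 5xFAD and 53.6 ± 2.80 in 5xFAD-Dp16, with no overlap (log2 difference -0.25 ± 0.16, adjusted p = 0.349).

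Among the 3 sterol transport genes, Npc2, the soluble lysosomal protein that hands cholesterol to NPC1, had the smallest p of the 34 genes in 5xFAD against WT. Npc2 CPM was 130, 124, 120 and 88.6 in WT, 131, 129, 135 and 130 in Dp16, 159, 175, 188 and 152 in 5xFAD, and 113, 145, 125 and 114 in 5xFAD-Dp16. Each 5xFAD library was above all 12 others. The log2 difference was 0.55 ± 0.13 for 5xFAD against WT (1.46-fold; 95% interval 0.28 to 0.81; adjusted p = 0.131), -0.48 ± 0.14 for 5xFAD-Dp16 against 5xFAD (interval -0.77 to -0.19; adjusted p = 0.155) and -0.67 ± 0.19 in the interaction (adjusted p = 0.522). DESeq2 gave adjusted p-values of 0.0132 and 0.0379 for the first 2.

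Summed microglial markers were likewise highest in 5xFAD, although single markers were not all so. The summed CPM of 8 microglial markers ran from 481 to 566 in WT, 470 to 580 in Dp16, 642 to 907 in 5xFAD and 505 to 586 in 5xFAD-Dp16, and that of 8 markers of plaque-associated microglia from 117 to 142, 137 to 164, 249 to 468 and 184 to 205. Within 5xFAD the female libraries had the higher values of both sums, and the 5xFAD-Dp16 libraries were all male. In 5xFAD against WT, where 0.176% of all genes passed, 6 of the 8 plaque-associated markers rose, among them Tyrobp (log2 difference 1.62, adjusted p = 0.00192). In 5xFAD-Dp16 against 5xFAD 0 of the 16 markers passed, as did 0 of all 17019 genes. Of the 8 microglial markers, 6 were positive in 5xFAD against WT and 4 in 5xFAD-Dp16 against 5xFAD. Csf1r, a receptor that microglia need to survive, averaged 36.7 ± 14.5 CPM in WT, 40.4 ± 16.3 in Dp16, 34.8 ± 19.5 in 5xFAD and 46.9 ± 16.4 in 5xFAD-Dp16, and is named here after its values were seen. Cst7 and Itgax were at 0 in at least 1 library. The part of these cells in the Npc2 values was not tested, and in bulk RNA a change in the number of cells of a type and a change in RNA per cell cannot be told apart.

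Stard4, a soluble carrier that moves cholesterol between membranes, was higher with the 5xFAD transgenes on either background. Stard4 CPM was 30.1, 19.7, 21.9 and 28.4 in WT, 24.9, 31.6, 24.1 and 26.9 in Dp16, 30.8, 34.9, 36.6 and 40.2 in 5xFAD, and 33.4, 39.6, 39.8 and 44.9 in 5xFAD-Dp16. Dp16 library 2 alone, of the 8 without transgenes, was above the lowest 5xFAD library. Fitted log2 differences were 0.51 ± 0.15 for 5xFAD against WT (adjusted p = 0.254), 0.48 ± 0.16 for 5xFAD-Dp16 against Dp16 (adjusted p = 0.758) and 0.58 ± 0.16 for 5xFAD-Dp16 against WT (adjusted p = 0.331), with an interaction of -0.03 ± 0.22 (adjusted p = 0.964). Over both backgrounds, again a comparison added after seeing the data, it was 0.49 ± 0.11 (1.41-fold; 95% interval 0.26 to 0.73; adjusted p = 0.119, where 0.188% of all genes passed), and DESeq2 gave 0.00726. Stard4 differed by 0.08 ± 0.16 between 5xFAD-Dp16 and 5xFAD (adjusted p = 0.799). The part of microglia in the Stard4 values was not tested.

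Npc1, the lysosomal membrane protein that takes cholesterol over from NPC2, had CPM of 30.2, 29.7, 32.0 and 41.2 in WT, 26.7, 21.4, 33.1 and 16.3 in Dp16, 31.4, 36.2, 17.9 and 25.2 in 5xFAD, and 45.2, 22.0, 30.1 and 25.8 in 5xFAD-Dp16. The groups overlapped in every comparison, and the log2 difference of Dp16 from WT was -0.44 ± 0.25 (adjusted p = 1.00). It was -0.20 in males only, -0.68 without Dp16 library 3 and -0.24 without Dp16 library 4. Soat1, the only gene of esterification listed, averaged from 20.2 to 23.4 CPM in the 4 genotypes.

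The 5 genes of efflux, LXR signalling and hydroxylation were negative in 5xFAD against WT, with a median log2 difference of -0.37, and positive in 5xFAD-Dp16 against 5xFAD, with a median of 0.55. Of the 5, 3 had an unadjusted p under 0.05 in the first comparison, where 10.7% of all genes did, and 2 in the second, where 23.8% did. Most markers of 4 other cell types or regions had the same signs. Endothelial markers were negative for 6 of 6 genes in 5xFAD against WT (median -0.90) and positive for 6 of 6 in 5xFAD-Dp16 against 5xFAD (median 0.85), and their summed CPM ran from 113 to 149 in WT, 97.4 to 153 in Dp16, 63.9 to 90.3 in 5xFAD and 85.3 to 150.2 in 5xFAD-Dp16. Markers of oligodendrocyte precursors did so for 4 of 4 genes each way (medians -0.33 and 0.77), with sums from 31.9 to 102 in WT, 45.0 to 87.2 in Dp16, 26.1 to 70.8 in 5xFAD and 52.4 to 111 in 5xFAD-Dp16. Of 8 neuronal markers, 6 were negative and then 7 positive (medians -0.18 and 0.39), with sums from 8575 to 10005 in WT, 8248 to 9345 in Dp16, 8455 to 10655 in 5xFAD and 8882 to 9731 in 5xFAD-Dp16. Of 6 markers of hippocampus, striatum and thalamus, 5 were negative and then 5 positive (medians -0.45 and 0.61), with sums from 487 to 799 in WT, 486 to 725 in Dp16, 394 to 667 in 5xFAD and 399 to 625 in 5xFAD-Dp16, and Tcf7l2 at 0 in at least 1 library. None of these 24 markers passed an adjusted p of 0.05 in edgeR in either comparison, and an unadjusted p under 0.05 was met by 7 and by 8. The medians of the other marker sets were -0.43 and 0.13 for myelinating oligodendrocytes, -0.32 and 0.24 for pericytes and smooth muscle, -0.07 and 2.73 for choroid plexus, -0.31 and -0.15 for blood, and -0.0017 and 0.02 for astrocytes. The microglial sets had the opposite signs, with medians of 0.62 and -0.21 for microglia and 1.60 and -0.71 for plaque-associated microglia. The part of these cells in the values of the 5 genes was not tested.

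Cyp46a1 encodes the enzyme named above for the removal of cholesterol from the brain. Cyp46a1 CPM was 121, 112, 154 and 186 in WT, 133, 127, 181 and 123 in Dp16, 119, 124, 66.6 and 93.8 in 5xFAD, and 174, 135, 155 and 139 in 5xFAD-Dp16. All 4 5xFAD-Dp16 libraries were above all 5xFAD libraries, and 5xFAD overlapped WT. The log2 difference was -0.52 ± 0.20 for 5xFAD against WT (adjusted p = 0.363), 0.66 ± 0.22 for 5xFAD-Dp16 against 5xFAD (95% interval 0.20 to 1.12; adjusted p = 0.155) and 0.68 ± 0.29 in the interaction (adjusted p = 0.522). In males only, which leaves 5xFAD libraries 3 and 4, the first of these was -0.80.

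Abcg1, the exporter that loads cholesterol onto lipoprotein particles, averaged 43.1 ± 11.5 CPM in WT, 45.4 ± 6.15 in Dp16, 31.0 ± 6.71 in 5xFAD and 44.0 ± 5.64 in 5xFAD-Dp16. Its 5xFAD-Dp16 libraries, from 40.1 to 52.2, were above all 5xFAD libraries, from 22.0 to 36.4 (log2 difference 0.55 ± 0.21, adjusted p = 0.159). Nr1h2, which encodes LXR-beta, averaged 45.5 ± 3.22 in WT and 35.6 ± 9.85 in 5xFAD (log2 difference -0.37 ± 0.16, adjusted p = 0.423). The difference was -0.76 in males only, which leaves 5xFAD libraries 3 and 4. Nr1h3, which encodes LXR-alpha, averaged from 6.59 to 8.09 CPM and Abca1 from 9.0 to 11.9, with overlapping groups.

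In the libraries with the strongest length trends, the 10 SREBP control and efflux genes did not all lie at the same end. 5xFAD library 3, with the most negative rho of -0.46, had the lowest CPM of all 16 libraries for Srebf1, Srebf2, Scap, Abcg1, Nr1h2 and Cyp46a1, but the highest for Insig1 (158) and Insig2 (75.2), while Nr1h3 and Abca1 lay in between. Over the 34 genes 5xFAD library 3 was the lowest library for 8 and the highest for 9. The matching share of all genes was not computed, so these counts do not set the sterol genes apart. 5xFAD-Dp16 library 1 and WT library 4, with the most positive rho, had the 2 highest CPM for Srebf1, while WT library 4 had the lowest for Insig1 (96.0). Insig1 thus went the opposite way to Srebf1 in 5xFAD library 3 and WT library 4. Insig1 and Insig2 are 2697 and 2953 bases long, and Srebf1, Srebf2, Scap and Abcg1 from 4227 to 6830. Nr1h2 and Cyp46a1 are shorter, at 2006 and 2118 bases. In 5xFAD-Dp16 all 4 libraries had a positive rho (0.10 to 0.45), against 2 of 4 in 5xFAD. With this trend removed, the difference of 5xFAD-Dp16 from 5xFAD was 0.70 for Srebf1, 0.77 for Cyp46a1, 0.35 for Scap, 0.30 for Srebf2 and 0.25 for Abcg1 (adjusted p from 0.128 to 0.241). Without WT library 2 and 5xFAD library 3 it was 0.65, 0.51, 0.34, 0.42 and 0.43. Removing the trend left Npc2 at 0.58 and Stard4 at 0.55 in 5xFAD against WT. Across the 34 genes, the Spearman rho between the log2 difference and gene length was 0.35 in 5xFAD-Dp16 against 5xFAD, 0.57 in 5xFAD-Dp16 against Dp16 and 0.53 in 5xFAD-Dp16 against WT, but -0.08 in 5xFAD against WT and -0.01 in Dp16 against WT. This is a description over genes that share libraries.

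**Figure D4:**
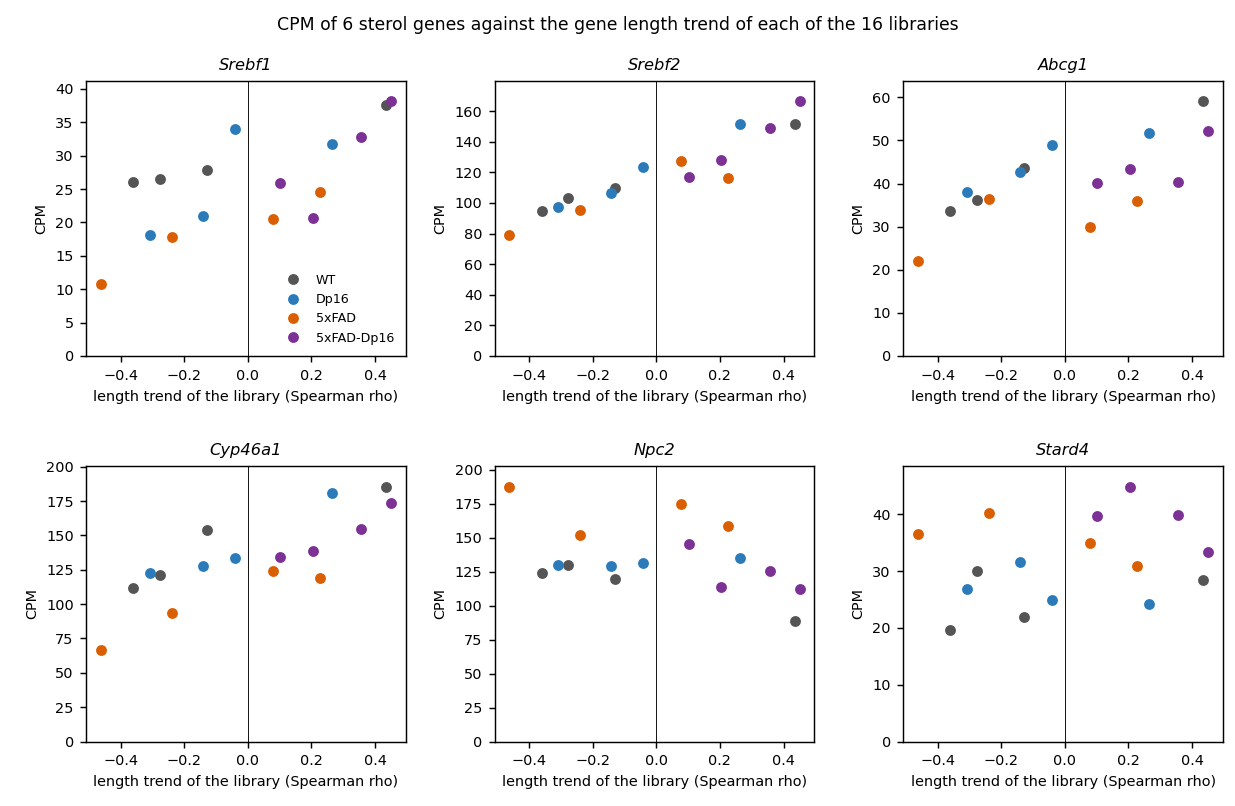
CPM of 6 sterol genes (vertical axes from 0) against the gene length trend of each of the 16 libraries (Spearman rho, horizontal axes), coloured by genotype. Srebf1, Srebf2, Abcg1 and Cyp46a1 are lowest in the 5xFAD library with a rho of -0.46. Npc2 is highest in that same library and lowest in the WT library with a rho of 0.43. All 5xFAD libraries, with rho from -0.46 to 0.23, lie above every other library for Npc2.

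In Dp16 against WT, 0 of the 34 genes were higher and 1 lower (Acat3) with no overlap between the groups, where 1.44% of all genes were higher and 0.852% lower in this way. In 5xFAD against WT, 3 were higher (Npc2, Stard4 and Hmgcs1; 2.8% of all genes) and 1 lower (Srebf1; 2.68%). In 5xFAD-Dp16 against 5xFAD, 4 were higher (Cyp46a1, Abcg1, Dhcr7 and Fdps; 5.59%) and 4 lower (Insig2, Npc2, Pmvk and Acat3; 5.87%). Set against Dp16, 5xFAD-Dp16 had Sqle and Stard4 higher (2.82%) and Pmvk lower (2.61%). Set against WT, it had Sqle, Stard4, Insig1 and Hmgcs1 higher (2.37%) and Acat3 lower (1.61%). Overlap was judged on values not adjusted for sex, and the 5xFAD-Dp16 libraries were all male.

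Other genes of the pathway were taken from 4 further lists, and 0 of their genes passed an adjusted p of 0.05 in edgeR in any of the 5 genotype comparisons or the interaction. Of 14 genes of lipoproteins, their receptors and sterol export, 4 were positive in 5xFAD against WT (median -0.26) and 11 in 5xFAD-Dp16 against 5xFAD (median 0.39), with an unadjusted p under 0.05 for 3 and 4, where 10.7% and 23.8% of all genes had one, so that the second count is near the share of all genes. Mylip, a ubiquitin ligase that degrades lipoprotein receptors and is a target of LXR, averaged 10.8 ± 1.84 CPM in WT, 10.4 ± 1.36 in Dp16, 17.9 ± 1.62 in 5xFAD and 14.7 ± 1.5 in 5xFAD-Dp16 (5xFAD against WT 0.74 ± 0.16, adjusted p = 0.108). Abcg4, a sterol exporter of neurons and glia, averaged 10.6 ± 4.55 in 5xFAD and 21.7 ± 4.58 in 5xFAD-Dp16 (1.35 ± 0.38, adjusted p = 0.155).

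Of 17 fatty acid genes driven by SREBP and LXR, 14 were positive in Dp16 against WT (median 0.16) and 12 in 5xFAD-Dp16 against 5xFAD (median 0.44), with an unadjusted p under 0.05 for 1 and 3, where 3.88% and 23.8% of all genes had one, so that the second count is below the share of all genes. Scd1, a stearoyl-CoA desaturase, averaged 97.8 ± 33.2 CPM in 5xFAD and 154 ± 31.1 in 5xFAD-Dp16 (log2 difference 0.82 ± 0.28, adjusted p = 0.155). Of 18 genes of sterol trafficking, ester hydrolysis and oxysterols, 11 were positive in 5xFAD against WT (median 0.07) and 7 in 5xFAD-Dp16 against 5xFAD (median -0.11), with an unadjusted p under 0.05 for 1 and 3, both below the shares of all genes (10.7% and 23.8%). Osbpl5, a lipid transfer protein at membrane contacts, averaged 10.7 ± 1.79 in 5xFAD and 17.3 ± 2.11 in 5xFAD-Dp16 (0.83 ± 0.19, adjusted p = 0.155). Of 10 genes of SREBP processing and sterol sensing, 5 were positive in 5xFAD against WT (median 0.05) and 4 in 5xFAD-Dp16 against 5xFAD (median -0.04), with an unadjusted p under 0.05 for 2 and 2, beside the same shares.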

How the data were processed

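The counts are whole reads per gene, deposited by the authors without normalization, and a second deposited table holds the authors' RPKM values (reads scaled by gene length and library total), used here for gene lengths. The submitters' processing notes name build GRCm38 and the tools HTSeq 0.6.1, HISAT2 2.1.0, bcl2fastq, SAMtools 1.5 and FastQC 0.11.5. The strand setting of the counting is not given in the sources used here, although the labels' protocols describe strand-specific libraries of polyadenylated RNA. Per the file headers the annotation was Gencode vM24; coordinates and exons came from M21 of the same build, with 55144 of 55385 genes matched.

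Genes were kept by filterByExpr (17019 genes) and scaled by TMM. One model with 4 genotype means and an additive sex term was fitted in edgeR 4.0.16 (R 4.3.3), with robust quasi-likelihood dispersions and two-sided tests adjusted by Benjamini-Hochberg at 0.05. The common biological coefficient of variation was 0.266. CPM are TMM-scaled, SE come from the test statistic, and intervals use its degrees of freedom. Shared 50-base stretches were counted between transcripts. The procedure was also run on simulated counts. These held no length trend and no sex difference, so they cannot show how it handles either. Library values are given for the 4 members with the smallest p in each comparison, and genotype means for the rest; of the other lists at most 3 genes each were named. Members, lists and rules were chosen with earlier results of these data known. Alternatives were DESeq2 1.42.0, its size factors, no filter, no sex term, only the groups compared, males only, removal of the length trend, a replicate block and each library left out. Sample numbers are not said to mark litters or batches.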

Additional observations from a re-analysis of the deposited data

Results flagged for a closer look

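Of 136 sets of 4 libraries (34 genes in 4 genotypes), 5 had 1 library far from the other 3 by Dixon's test at 95%, where chance gives about 1 set in 20. Fdft1 was 135 CPM in Dp16 library 1 and 166 to 169 in the others. Tm7sf2 was 35.9 CPM in 5xFAD library 3 and 16.2 to 18.9 in the others. Msmo1 was 112 CPM in WT library 4, beside 163 to 171. Srebf1 was 37.5 CPM in the same WT library, beside 26.0 to 27.8. Nr1h2 was 49.3 CPM in Dp16 library 1 and 40.3 to 40.8 in the others.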

How the results depend on the processing

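In the main analysis 0 of the 34 genes passed in each comparison. The counts also stayed at 0 with size factors, without a sex term, with the length trend removed, and without WT library 2 and 5xFAD library 3 (an exclusion, like the 2 carrier comparisons, added after seeing the data). Leaving out 1 library at a time gave 0 as the lowest and the highest count in every comparison. Same-numbered libraries of different genotypes deviated together with a correlation from -0.60 to 0.57. For libraries with different numbers it ran from -0.72 to 0.66. These ranges overlap widely, so this check cannot decide whether the numbers mark pairs. With the sample number as a replicate block the count was 0 in every comparison.

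DESeq2 called 2 in 5xFAD against WT (234 of all genes), 6 in 5xFAD-Dp16 against 5xFAD (781), 1 in 5xFAD-Dp16 against WT (106), 1 for 5xFAD carriers (154) and 2 for Dp16 carriers (131). With no filter on low counts 1 passed in 5xFAD against WT (235 of all genes), 5 in 5xFAD-Dp16 against 5xFAD (2215), 2 in the interaction (346) and 1 for Dp16 carriers (1097). Males only gave 11 in 5xFAD-Dp16 against 5xFAD, with 2 5xFAD libraries (3956 of all genes), and 5 for Dp16 carriers (2488). A fit of only the groups compared gave 13 in 5xFAD-Dp16 against 5xFAD (5020, or 31.3%). The cause of these differences was not tested. Of 921 alternative values of 48 named differences, 0 reversed and 46 newly passed, while 28 values of 19 differences moved by over 1.5 times. Of 157 alternative medians 1 moved by over 0.09, the SD of library medians: without the sex term, that of 5xFAD-Dp16 against 5xFAD was 0.07.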
